A study of Homo sapiens with 6 samples.

Results

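Cholesterol synthesis, its control by the SREBP transcription factors and the genes beside them in sterol uptake were followed in the liver cancer cell line HepG2 after a hairpin against the long noncoding RNA CHROME. The genes were taken by symbol from a list of 31, of which 30 had a row among the 23368 genes of the deposited table. The remaining symbol, SC5D, is listed under its older name SC5DL, which is itself on the list, so no gene was lost. An expression filter passed 29 of the 30, and INSIG1 did not pass it.

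All 6 libraries were of HepG2 cells transduced with lentivirus that carried a short hairpin RNA. In 3 of them (shCHROME, replicates a, b and c) the hairpin, SH3 in the titles, was aimed at the CHROME variants, and in the other 3 (EV, replicates a, b and c) it was a non-targeting control. The cells of both groups therefore share the vector, the transduction and the culture in medium with serum, which supplies lipoprotein cholesterol. The level of CHROME was not analysed here and stands beside none of these values. The labels do not say whether the libraries of a group came from separate cultures, so p-values rest on a spread that may be technical. In bulk RNA, fewer cells with a transcript and less of it per cell cannot be told apart.

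Recovered read totals lay between 29188213 and 35429420 per library. All 14 hepatocyte markers of a list had reads, with summed normalized counts of 1450000 to 1569000 in EV and 1168000 to 1365000 in shCHROME libraries. Of these 14 markers 6 fell at an adjusted p under 0.05 (limma, as below), and none rose. Among all tested genes 6.87% were called lower and 3.64% higher. The 6 were ALB, APOA1, TF, TTR, SERPINA1 and AFP, the last being the fetal serum protein of liver tumour cells. Of 8 markers of the embryonic kidney cells that packaged the virus, NEFL and NEFM were at 0 in each library, and the list summed to 4199 to 4654 in EV and 3837 to 4023 in shCHROME, mostly from CDH2. Of 8 markers of blood, endothelial and mesenchymal cells DCN was at 0 in each library, and the list summed to 650 to 824.4 in EV and 524 to 589.3 in shCHROME. CDH2 and PDGFRB were also called lower, each as 1 of 3 tested genes of its list. The part of these marker differences in the results below was not tested.

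Cells make cholesterol from acetyl-CoA through mevalonate, isoprenoid diphosphates, squalene and lanosterol. When sterol in the endoplasmic reticulum is low, SCAP escorts the SREBP precursors in COPII vesicles to the Golgi, where the site-1 and site-2 proteases (MBTPS1 and MBTPS2) release the active factors, and when sterol is high INSIG1 and INSIG2 hold SCAP back. Nuclear SREBP-2, from SREBF2, mainly switches on the synthesis and uptake of cholesterol, whereas SREBP-1, from SREBF1, mainly drives fatty acid synthesis, and the liver is a main site of both.

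SREBP binds sterol regulatory elements and works with NF-Y, which binds CCAAT boxes. Both motifs were therefore looked up in promoter windows of 300 bases (250 before to 50 after an annotated start, RefSeq, GRCh38.p14) on both strands. Windows were found for 27 of the 30 genes. A CCAAT match stood in a window of 19 of these 27 genes, or 70.4%. Among all 27305 genes in the promoter table it was 39.7%, and among its 35116 windows 34.6%. By role it was 14 of 17 synthesis enzymes, all 3 genes of uptake and sterol movement, and 2 of 7 control genes, INSIG1 and SREBF2. FDPS, MVD, EBP and TMEM97 had 3 matches each, IDI1 up to 3 in a window, MSMO1 4, and MVK and NSDHL 5. Of the tested genes with a window 43.1% held CCAAT. A core of the sterol regulatory element, searched as TCACNCCA, was matched in MVK, MSMO1 and SREBF2. That is 11.1% of the 27 genes, against 4.8% of all genes. The E-box CACGTG, which reads the same on both strands, was matched in INSIG1, LSS, SCAP and SC5DL (14.8%). The share was 8.77% of all genes and 12.4% of tested genes with a window. The genes were chosen for their shared pathway, so these shares are a description, with no test. These matches are letters in a window and were not measured as binding.

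The 3 promoters with the sterol element core are shown because they hold it beside CCAAT boxes. That of HMGCS1 is shown because it has CCAAT boxes without a match to TCACNCCA. Only this string was searched, so a promoter without a match is not shown to lack a sterol element. Each line gives the 250 bases before the start, 5′ to 3′ on the gene's strand, with TCACNCCA and CCAAT matches (or their reverse complements) in capitals. The positions are chr22:41832855-41833104 (plus strand), chr12:109573544-109573793 (plus), chr4:165327419-165327668 (plus) and chr5:43313413-43313662 (minus), on GRCh38.p14.
SREBF2: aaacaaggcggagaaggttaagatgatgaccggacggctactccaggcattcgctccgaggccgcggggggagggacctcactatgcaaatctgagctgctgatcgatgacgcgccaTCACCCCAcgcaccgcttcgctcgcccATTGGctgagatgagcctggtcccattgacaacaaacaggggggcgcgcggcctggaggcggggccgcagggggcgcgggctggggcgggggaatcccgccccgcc
MVK: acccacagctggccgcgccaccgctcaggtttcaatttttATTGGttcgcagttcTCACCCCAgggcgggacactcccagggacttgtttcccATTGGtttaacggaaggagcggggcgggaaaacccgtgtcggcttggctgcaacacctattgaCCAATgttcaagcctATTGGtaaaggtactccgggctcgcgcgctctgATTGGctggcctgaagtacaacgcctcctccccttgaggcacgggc
MSMO1: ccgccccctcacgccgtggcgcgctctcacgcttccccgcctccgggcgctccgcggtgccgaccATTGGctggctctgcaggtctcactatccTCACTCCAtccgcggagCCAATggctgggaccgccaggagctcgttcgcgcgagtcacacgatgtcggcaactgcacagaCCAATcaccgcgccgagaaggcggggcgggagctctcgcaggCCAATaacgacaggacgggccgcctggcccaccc
HMGCS1: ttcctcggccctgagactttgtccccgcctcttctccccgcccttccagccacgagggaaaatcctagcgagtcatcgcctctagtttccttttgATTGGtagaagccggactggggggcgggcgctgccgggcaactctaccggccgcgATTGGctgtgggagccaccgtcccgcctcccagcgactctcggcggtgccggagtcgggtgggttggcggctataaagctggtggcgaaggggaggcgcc

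Counted from the start, the core lay at -133 to -126 in SREBF2, -195 to -188 in MVK and -156 to -149 in MSMO1. The nearest CCAAT box lay at -106 to -102 in SREBF2, -210 to -206 in MVK and -139 to -135 in MSMO1. In HMGCS1 the boxes lay at -155 to -151 and -100 to -96. No SREBP or NF-Y binding was measured in this series.

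SREBF2 and SREBF1 also carry a microRNA each in an intron, miR-33a and miR-33b, which repress the cholesterol exporter ABCA1. Since CHROME is described in the literature as binding miR-33, the mature 5p strands (RefSeq, GRCh38.p14) are shown with the seed, bases 2 to 8, in capitals.
hsa-miR-33a-5p: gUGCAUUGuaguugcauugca
hsa-miR-33b-5p: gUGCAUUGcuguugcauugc

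The seeds are the same, and the strands differ at 2 of their first 20 bases. MIR33A is on chromosome 22 (41900949 to 41900969, plus strand) and MIR33B on chromosome 17 (17813897 to 17813916, minus strand), both given for the 5p strand. The table lists MIR33A with 0 reads in each library and MIR33B with 1 read in each. Libraries made for long RNA hold little mature microRNA, so only the host genes are described.

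Across the pathway the groups differed little. At an adjusted p under 0.05 (limma on log2(value + 1), Benjamini-Hochberg over 14598 genes), 1 of the 29 tested genes fell, INSIG2, and 1 rose, MBTPS2, while the other 27 did not pass. Among all tested genes 10.5% passed (6.87% lower and 3.64% higher), so 2 of 29 is no more than the background. At an unadjusted p under 0.05 there were 4 of 29 (INSIG2, MBTPS2, HMGCS1 and MVK), against 24.2% of all genes. With edgeR's quasi-likelihood test on recovered reads 1 of 29 passed (INSIG2), against 10.6% of all genes. With DESeq2 INSIG2 and MBTPS2 passed, against 12.2% of the 13465 genes to which it gave an adjusted p. With the replicate letter as a block in limma these 2 also passed, against 7.62% of all genes. The authors' deposited table has none of the 29 at an adjusted p under 0.05, and its smallest value is 0.115, for INSIG2. The share of all genes that pass in the authors' table was not counted, so this result has no background beside it. The libraries of the groups did not overlap in 4 of 29 genes (SCAP and LBR higher, INSIG2 and STARD4 lower in shCHROME), against 28% of all genes. The median log2 fold change of the 29 was 0.03, with 16 above and 13 below 0. That of all tested genes was 0.01, with 52.2% above 0.

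The intervals bound what these libraries could have missed under the deposited scaling. They rest on the spread between libraries, which may be technical, and so may not cover differences between separate cultures. For each of the 29 genes the 95% interval of the fold change, taken gene by gene, lay within 1.5-fold in either direction, and for 21 of them within 1.25-fold. The highest bound was a 1.38-fold rise, for MBTPS2, and the lowest a 1.43-fold fall, for PMVK. Over all tested genes 10928 had intervals within 1.5-fold.

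**Figure D1:**
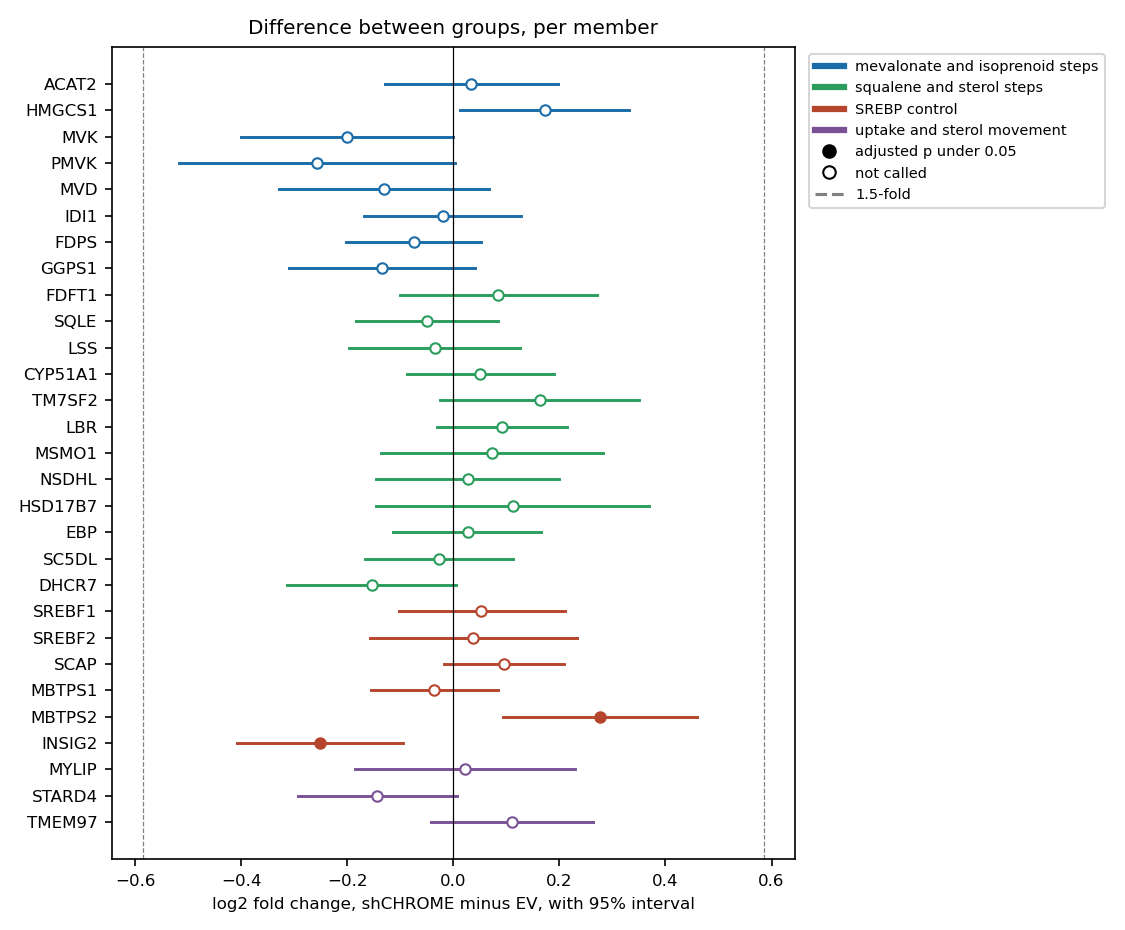
Log2 fold change (shCHROME minus EV, horizontal axis) of the 29 tested genes with its 95% interval (bars), coloured by role; filled circles passed at an adjusted p under 0.05, open circles did not, and dashed lines mark 1.5-fold. INSIG2 at -0.25 and MBTPS2 at 0.28 are the filled ones, and each interval lies inside the dashed lines.

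Among the genes of SREBP control, INSIG2 (chromosome 2), which keeps SCAP and the SREBP precursors in the endoplasmic reticulum, was measured at 2783, 2238 and 2631 normalized counts in EV replicates a, b and c. In shCHROME replicates a, b and c it was 2213, 2064 and 2129. Each shCHROME library lay below the lowest EV library, though by only a little, since EV replicate b was well under the other EV libraries. INSIG2 fell 1.19-fold, from 2550 ± 281.3 to 2135 ± 74.73 (SD, n = 3 per group; log2 fold change -0.25, 95% interval -0.41 to -0.09, limma adjusted p = 0.0372). The call was lost with libraries scaled to their totals (adjusted p = 0.0837, limma) and without EV replicate a (0.204), EV replicate c (0.14), shCHROME replicate b (0.102) or shCHROME replicate c (0.12). Over its 17 alternatives the log2 fold change ran from -0.34 to -0.19.

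MBTPS2 (chromosome X), the site-2 protease that makes the final cut of SREBP, was at 1370, 1206 and 1590 normalized counts in EV and 1571, 1670 and 1783 in shCHROME. EV replicate c lay above shCHROME replicate a, so the groups overlapped by 1 library each. MBTPS2 rose 1.21-fold, from 1389 ± 192.9 to 1674 ± 105.9 (SD, n = 3 per group; log2 fold change 0.28, 95% interval 0.09 to 0.46, limma adjusted p = 0.0489). This call, at the edge of the threshold, was lost with edgeR (adjusted p = 0.0518) and with no filter on low counts (limma, 0.0626). It was also lost without EV replicate a (0.121), EV replicate b (0.231), shCHROME replicate b (0.0992) or shCHROME replicate c (0.214). Its log2 fold change stayed between 0.18 and 0.38 over the 17 alternatives. MBTPS1, the site-1 protease that cuts first and also matures ATF6, had a log2 fold change of -0.04 (-0.15 to 0.08).

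SCAP, the sterol-sensing escort, was measured at 6239, 6154 and 6200 normalized counts in EV and 6499, 6901 and 6478 in shCHROME. The EV libraries had a coefficient of variation of 0.692%, and each shCHROME library lay above them. The log2 fold change was 0.10 (95% interval -0.02 to 0.21) and did not pass (limma adjusted p = 0.296).

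SREBF2, the gene of SREBP-2 and host of miR-33a, was at 5462, 4690 and 5699 normalized counts in EV and 4495, 6261 and 5616 in shCHROME. The lowest and the highest of the 6 libraries were both shCHROME, and the spread within that group was 893.4 around a mean of 5457 (SD, n = 3). Its log2 fold change was 0.04 (-0.16 to 0.23). SREBF1, the gene of SREBP-1 and host of miR-33b, was at 1368, 1207 and 1375 in EV and 1350, 1444 and 1301 in shCHROME, with a log2 fold change of 0.05 (-0.10 to 0.21). The transcript levels of both hosts thus overlapped between groups, and their intervals reach to a 1.18-fold rise for SREBF2 and a 1.16-fold rise for SREBF1.

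INSIG1, the other retention protein and itself an SREBP target, is listed with 1, 0 and 1 reads in EV and 2, 0 and 1 in shCHROME. It was not tested. APOC2, an apolipoprotein gene of hepatocytes, is listed with 0 reads in each library. Whether either gene is silent in these cells or was missed in the counting was not tested, and no fold is given.

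Of the 8 listed genes of the steps from acetyl-CoA to mevalonate and the isoprenoid diphosphates, none passed. Negative log2 fold changes were found in 6 of the 8 (median -0.10), against 6976 of all 14598 tested genes. HMGCS1, which makes HMG-CoA, was at 4052, 4550 and 4565 normalized counts in EV and 4306, 5404 and 5179 in shCHROME. Replicate a was the lowest library in each group, and shCHROME replicates b and c were the highest of the 6. Its log2 fold change was 0.17 (95% interval 0.01 to 0.33, limma adjusted p = 0.168). Without shCHROME replicate a the log2 fold change was 0.27, and it then passed (limma adjusted p = 0.009).

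MVK, mevalonate kinase, was at 800.5, 882.1 and 901.1 normalized counts in EV and 639.8, 827.1 and 793 in shCHROME. The shCHROME replicate a value stood below the rest, and the groups overlapped in the others (log2 fold change -0.20, limma adjusted p = 0.207). PMVK, phosphomevalonate kinase, was at 322.2, 362 and 278.8 in EV and 304.5, 254.3 and 245.5 in shCHROME, with a log2 fold change of -0.26 and the widest interval of the 29 (-0.52 to 0.00, limma adjusted p = 0.213). MVD, the diphosphomevalonate decarboxylase that ends this stretch, had a log2 fold change of -0.13 (-0.33 to 0.07).

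IDI1, which isomerises isopentenyl diphosphate, differed least in this stretch, at 1827, 1961 and 2003 normalized counts in EV and 1760, 1896 and 2063 in shCHROME (log2 fold change -0.02, -0.17 to 0.13). FDPS, the farnesyl diphosphate synthase, differed by -0.08 on the log2 scale (-0.20 to 0.05). GGPS1, which makes geranylgeranyl diphosphate for protein prenylation, had one of -0.14 (-0.31 to 0.04). ACAT2, the cytosolic acetoacetyl-CoA thiolase, had one of 0.03 (-0.13 to 0.20).

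The 12 genes of the squalene and sterol steps held no call. Of the 12, 8 were above 0 (median log2 fold change 0.04), against 52.2% of all tested genes. SQLE, squalene epoxidase, a rate-limiting oxygen-dependent step, was at 3742, 4030 and 4205 normalized counts in EV and 3608, 3912 and 4053 in shCHROME. The groups lay almost on top of each other (log2 fold change -0.05, 95% interval -0.18 to 0.08). FDFT1, squalene synthase, was at 2283, 2547 and 2662 in EV and 2217, 2930 and 2839 in shCHROME (0.08, -0.10 to 0.27). In both genes the lowest library of each group was replicate a.

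LSS, which closes squalene epoxide to lanosterol, differed by -0.04 on the log2 scale (95% interval -0.20 to 0.13). CYP51A1, the lanosterol demethylase, was at 7965, 8731 and 8806 normalized counts in EV and 7939, 9074 and 9461 in shCHROME (0.05, -0.09 to 0.19). The sterol C14 reductase step is shared by TM7SF2 and LBR, the latter also an anchor of chromatin at the nuclear lamina. TM7SF2 had a log2 fold change of 0.16 (-0.03 to 0.35, limma adjusted p = 0.286). LBR was at 2924, 3002 and 3047 in EV and 3227, 3057 and 3282 in shCHROME, without overlap but with a small difference (0.09, -0.03 to 0.21).

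The C4 demethylation genes MSMO1, NSDHL and HSD17B7 had log2 fold changes of 0.07, 0.03 and 0.11. HSD17B7, with 248.5 to 319.5 normalized counts over the 6 libraries, had an interval of -0.15 to 0.37. EBP, the sterol isomerase, was at 4519, 4576 and 4574 normalized counts in EV and 4169, 5082 and 4721 in shCHROME. Its EV libraries were nearly equal while the shCHROME libraries lay on both sides of them (0.03, -0.11 to 0.17). SC5DL, the lathosterol desaturase, had a log2 fold change of -0.03 (-0.17 to 0.11). DHCR7, which makes cholesterol from 7-dehydrocholesterol, was at 3987, 4420 and 4080 in EV and 3266, 4193 and 3809 in shCHROME (-0.15, -0.31 to 0.01, limma adjusted p = 0.224).

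MYLIP, the LXR-induced ubiquitin ligase that sends lipoprotein receptors to degradation, was at 403.6, 353.8 and 375.4 normalized counts in EV and 397, 370.1 and 381.6 in shCHROME. The shCHROME libraries lay inside the EV range (log2 fold change 0.02, 95% interval -0.19 to 0.23). STARD4, a cytosolic sterol carrier under SREBP-2, was at 1235, 1279 and 1243 in EV and 1084, 1109 and 1213 in shCHROME. Its groups did not overlap, but shCHROME replicate c came close to EV (-0.14, -0.29 to 0.01, limma adjusted p = 0.231). TMEM97, an SREBP target and partner of NPC1, also known as the sigma-2 receptor, had a log2 fold change of 0.11 (-0.04 to 0.26).

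**Figure D2:**
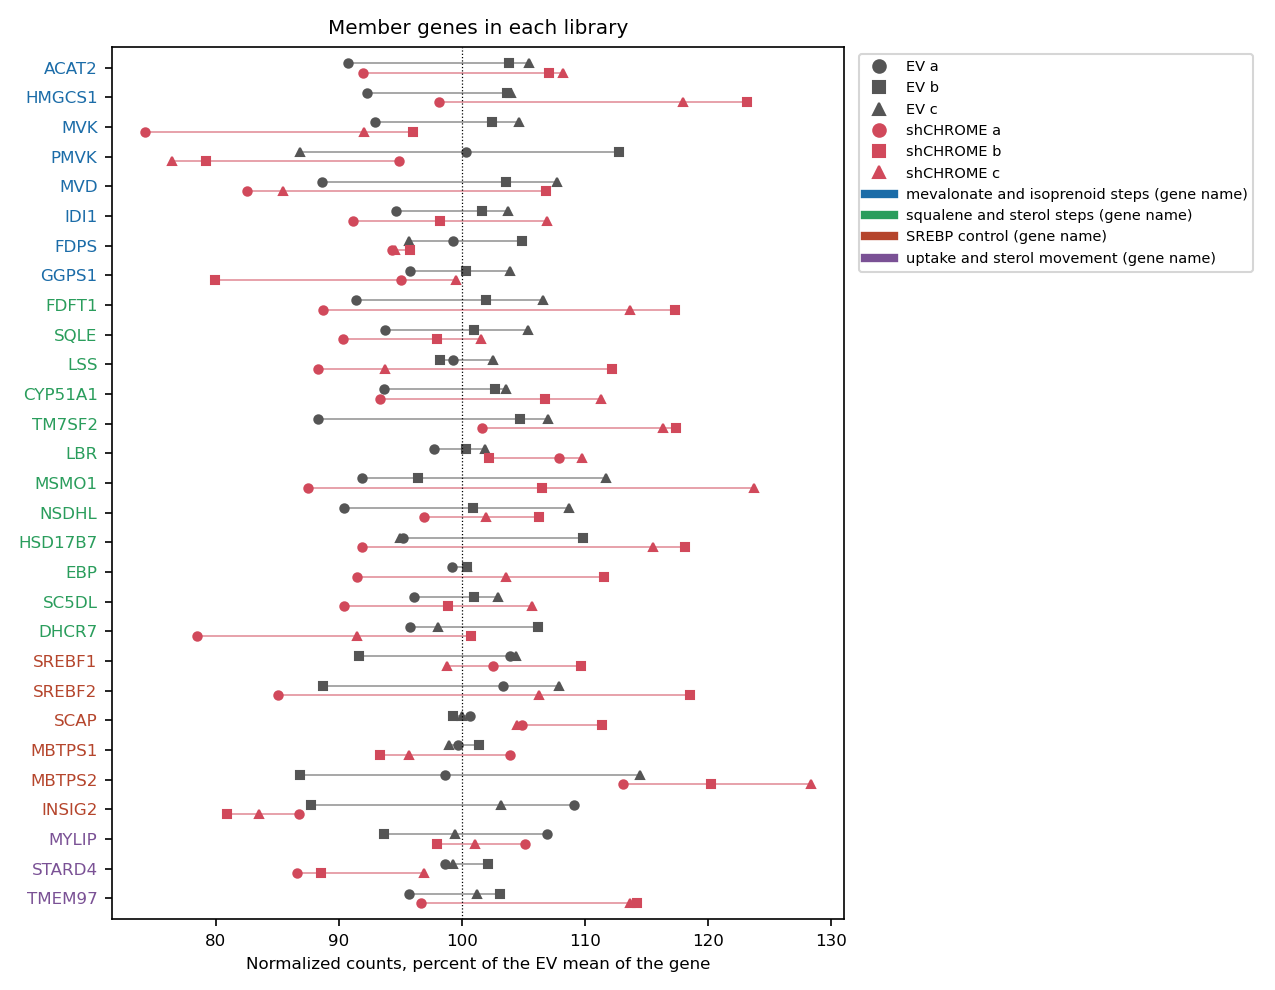
Normalized counts of the 29 tested genes in each library, as a percentage of the gene's EV mean (horizontal axis); grey marks are EV, red marks shCHROME, and the circle, square and triangle are replicates a, b and c. Values in most genes overlap between the groups, the INSIG2 and STARD4 shCHROME marks lie left of all EV marks, and circles lie leftmost in most enzyme genes.

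The differences that stood out among the enzymes were between libraries of the same group. EV replicate a was the lowest EV library in 16 of the 20 tested synthesis enzymes (80%), against 34.5% of all tested genes. shCHROME replicate a was the lowest of its group in 17 of the 20 (85%), against 34.7% of all tested genes. Each gene's log2 value was set against its mean over the 6 libraries, and the median of the 20 enzymes was -0.07, 0.03 and 0.05 in EV replicates a, b and c and -0.13, 0.07 and 0.07 in shCHROME replicates a, b and c. The same median over all tested genes lay between 0.00 and 0.01 in each library.

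In summed normalized counts the 20 enzymes came to 47163, 50875 and 51290 in EV and 45646, 52697 and 52415 in shCHROME, so the shCHROME sums lie on both sides of the EV range. EV replicate a had the fewest reads of the 6 libraries, 29188213, while shCHROME replicate a, with 33911426, had the most of its group. The part of read depth in this pattern was not tested. The 6 tested control genes did not share it. EV replicate a was the lowest EV library in 0 of them, and shCHROME replicate a the lowest of its group in 2. In these control genes EV replicate b was the lowest EV library in 5 of 6, against 33.1% of all tested genes. Of the 3 genes of uptake and sterol movement, 2 were lowest in replicate a in each group. The enzymes were grouped by role, but the pattern was seen in the values first and is given as a description, with no test. Nothing in the labels ties the replicates a of the groups to each other.

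**Figure D3:**
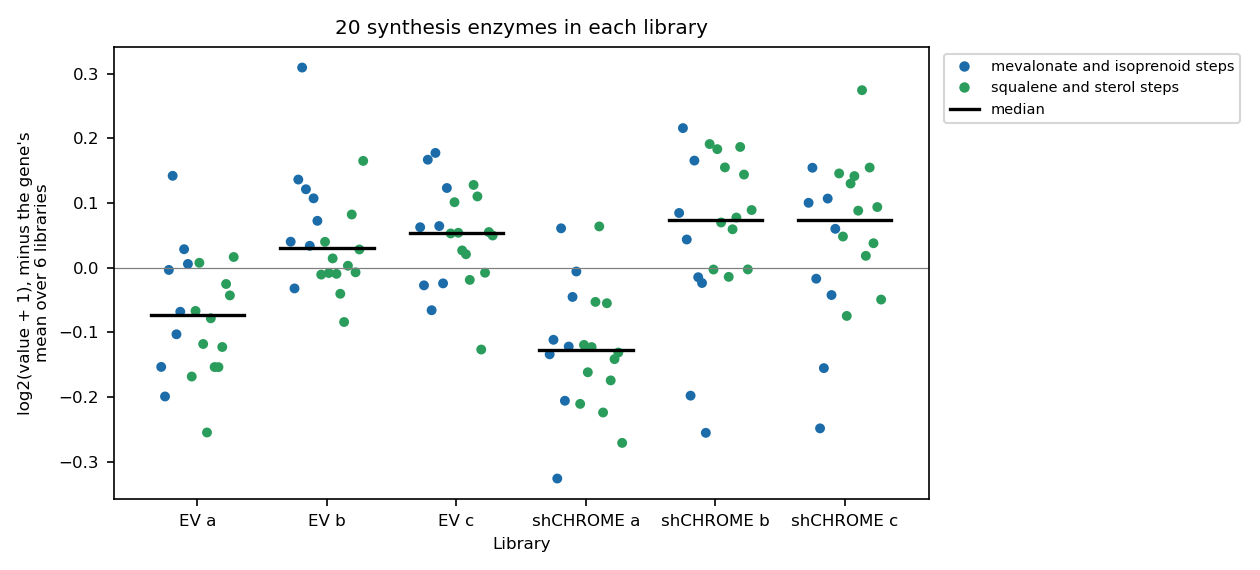
Log2(value + 1) of the 20 tested synthesis enzymes in each library, minus the gene's mean over the 6 libraries (vertical axis); each point is a gene, coloured by stretch of the pathway, and black bars are medians. The medians of EV a (-0.07) and shCHROME a (-0.13) lie below 0, and those of the other 4 libraries above it.

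Between genes, levels were compared as EV normalized counts per kilobase of annotated exon (GENCODE release 29, another annotation than the one the reads were counted on). EBP and CYP51A1 stood highest, at 2567 and 2539, and did not differ beyond their spread (2546 to 2578 and 2379 to 2630). FDPS at 1580 and DHCR7 at 1561 came next with overlapping ranges, followed by MBTPS1 at 1438, SCAP at 1363, SQLE at 1344 and HMGCS1 at 1245. SREBF2 and INSIG2 stood level at 984.7 and 984.3, while SREBF1, at 293, was under them and level with MVK at 292.8. MBTPS2 at 177.3 and MYLIP at 124.5 were the lowest of the tested genes.

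Lists of genes around the pathway are read against the same background, 10.5% of all tested genes called, 6.87% lower and 3.64% higher. Of 26 tested genes for the transport of SREBP and for sterol-regulated degradation, 7 fell, 2 rose and 17 did not pass (median log2 fold change -0.08). The COPII coat, which buds vesicles from the endoplasmic reticulum for all secreted cargo and not for SREBP alone, supplied 6 of the 7. Of its 10 genes listed, 6 fell and none rose, against 6.87% of all tested genes called lower. Negative log2 fold changes were found in 9 of the 10 (median -0.21), against 6976 of all 14598 tested genes (median 0.01). This subset was marked off after its values were seen, so its count is a description and supports nothing.

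SEC24A, a cargo-binding coat subunit, was at 5365, 4865 and 5366 normalized counts in EV and 3685, 4081 and 4166 in shCHROME. The groups were well apart, and SEC24A fell 1.31-fold (limma adjusted p = 6.23e-04). SAR1B, the GTPase that starts the coat and is needed for chylomicron export in the gut, was at 5826, 6088 and 5998 in EV and 4729, 4420 and 4869 in shCHROME, a 1.28-fold fall (limma adjusted p = 5.36e-04). SEC24D fell 1.25-fold, from 2615 ± 155.9 to 2097 ± 117.5, and SEC23A, the inner coat's other part, 1.23-fold, from 11030 ± 227.7 to 8947 ± 455.2 (SD, n = 3 per group). Each of these 4 calls held in all 17 alternatives.

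SEC31A and SEC13, which form the outer coat, fell 1.16-fold and 1.15-fold, but each call was lost in 5 of 17 alternatives. For SEC13 they were library totals, the replicate block and the fits without EV replicate a, EV replicate b or shCHROME replicate c (limma adjusted p up to 0.0999). For SEC31A they were library totals, the block and the fits that left out shCHROME replicate a or an EV library other than replicate b (limma adjusted p up to 0.0975). The paralogues SEC23B and SEC24B had log2 fold changes of -0.05 and 0.00.

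VCP, the ATPase that pulls ubiquitinated proteins out of the membrane, fell 1.19-fold (limma adjusted p = 0.00415), a call kept in all 17 alternatives. PAQR3, a Golgi anchor of SCAP and SREBP, rose 1.33-fold, its group means being 420.9 ± 25.74 in EV and 560.5 ± 57.73 in shCHROME (SD, n = 3; limma adjusted p = 0.0121), a call lost without shCHROME replicate c (0.0562). ERLIN2, which takes part in sterol-regulated degradation, rose 1.19-fold, a call lost in 6 of 17 alternatives, namely no filter, the block and the fits that left out any library but the replicates b (limma adjusted p up to 0.182). RNF139, a ligase of the same route, had a log2 fold change of -0.02.

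**Figure D4:**
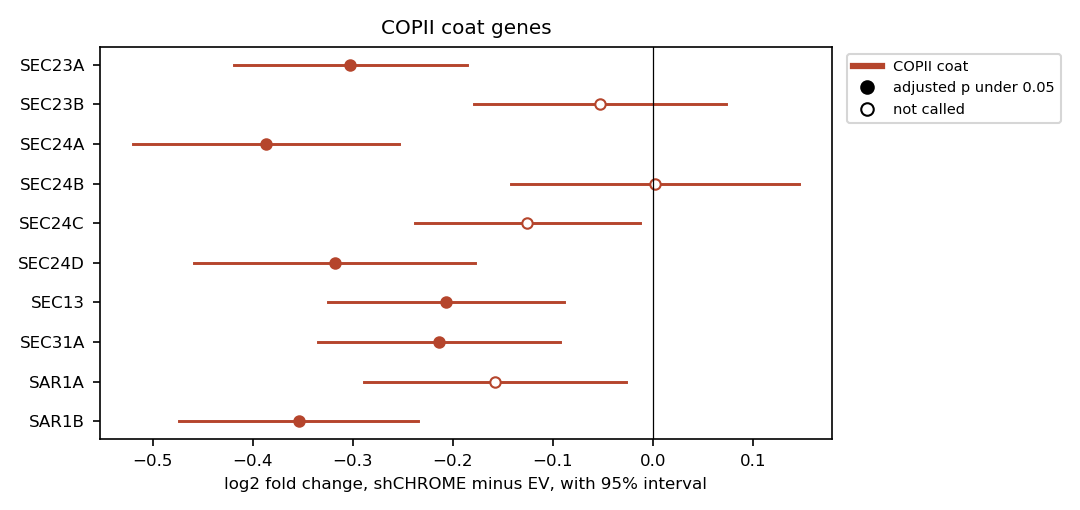
Log2 fold change (shCHROME minus EV, horizontal axis) with its 95% interval (bars) for the 10 COPII coat genes of the list; filled circles passed at an adjusted p under 0.05, open circles did not. The 6 filled genes lie below 0, from SEC24A at -0.39 to SEC13 at -0.21, and SEC24B alone lies at 0.00.

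In the isoprenoid branch, which feeds prenylation, dolichol and ubiquinone, none of 16 genes passed; RABGGTB, the most abundant, had a log2 fold change of -0.13. Of 21 genes of lipoprotein uptake, VLDLR, a receptor for triglyceride-rich lipoproteins, alone passed. It was at 241.9, 156.3 and 200.1 normalized counts in EV and 263.4, 347.4 and 288.1 in shCHROME, a 1.51-fold rise (limma adjusted p = 0.0155) that was lost without EV replicate b, shCHROME replicate b or shCHROME replicate c (up to 0.084). None of the 8 further sterol synthesis genes and electron donors passed, and POR, which supplies electrons to CYP51A1 and SQLE, had a log2 fold change of -0.06.

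Of 18 tested genes of esterification and sterol movement, 3 fell and none rose, against 6.87% of all tested genes called lower, and nothing particular to the list is read from so small a count. OSBPL10, a member of the oxysterol-binding protein family, was at 948.8, 908.6 and 908.1 normalized counts in EV and 643.5, 658.6 and 656.9 in shCHROME. Both groups were tight, and the 1.41-fold fall (limma adjusted p = 3.53e-04) kept its call in all 17 alternatives. VAPA, a membrane anchor of some proteins of that family at the endoplasmic reticulum, fell 1.32-fold (limma adjusted p = 3.71e-04), also in all 17. NCEH1, a cholesteryl ester hydrolase, fell 1.15-fold, and its call was lost in 9 of 17 alternatives, including the fits without any 1 library other than shCHROME replicate a (limma adjusted p up to 0.171).

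Of 6 tested oxysterol and LXR genes, CYP27A1 and CYP39A1, which hydroxylate sterols on the way to bile acids, fell 1.16-fold and 1.2-fold. Each call was lost in 8 of 17 alternatives, among them library totals, upper quartile scaling and the replicate block. Those of CYP27A1 also include each 1-library omission except that of shCHROME replicate b, and those of CYP39A1 no filter and the omissions of EV replicate a, EV replicate b, shCHROME replicate b and shCHROME replicate c (limma adjusted p up to 0.124 and 0.173).

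Of 15 tested fatty acid targets of SREBP-1, FADS1, a desaturase, fell 1.25-fold (limma adjusted p = 0.00177, in all 17 alternatives), and ACSL3, an acyl-CoA synthetase of lipid droplets, rose 1.23-fold. The ACSL3 call was lost with the replicate block and without EV replicate a or shCHROME replicate c (limma adjusted p up to 0.109). Among 17 cofactors and upstream regulators, LPIN1, a phosphatidate phosphatase that restrains nuclear SREBP, alone passed. It was at 2062, 2043 and 2042 normalized counts in EV and 1484, 1610 and 1635 in shCHROME, a 1.3-fold fall (limma adjusted p = 8.8e-04, in all 17 alternatives). MTOR, the kinase upstream of it, had a log2 fold change of -0.01.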

How the data were processed

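Per the submitters' processing notes, the tools were STAR 2.5, featureCounts 1.5.2 and DESeq2, listed as 3.4, and the build was hg19. Neither annotation nor strand setting is given in the sources used here, and reads of overlapping genes, antisense partners and close paralogues cannot be separated. The authors deposited a signal per gene and library, read counts divided by a size factor, with their own log2 fold change and p-value per gene. Of 24656 rows 1288 repeats were dropped, leaving 23368 genes, with symbols stored as dates restored where an identifier allowed. Values were whole multiples of 1 read in each library (within 0.01 reads, or a relative rounding error for large values, for 100% of values), and reads were recovered from that step. Replicates differed by more than sampling noise (chi-square per degree of freedom 5.72 to 17.04).

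The test was limma 3.58.1 run on log2(value + 1) with a mean-variance trend and group as the only term, on genes kept by filterByExpr of edgeR 4.0.16, adjusted over all of them; fold changes on this scale understate changes of low genes. Alternatives were edgeR and DESeq2 1.42.0 on recovered reads, other scalings, pseudocounts of 0.1 and 5, other filters, the replicate letter as a block, and omission of 1 library at a time. Simulated data were used to test the limma fit. Members and lists were chosen with earlier results of these data known. Named are each member, and of each further list the called genes or else the most abundant one, with some others for contrast.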

Additional observations from a re-analysis of the deposited data

How the results depend on the processing

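No gene of the pathway changed direction while called in any of the 17 alternatives, and in 21 of 493 fits an uncalled value changed sign. With library totals the pathway's median moved from 0.03 to 0.08 and that of all genes from 0.01 to 0.06, and 21 of the 29 genes were above 0, so that small differences here depend on scaling. Called members numbered 1 higher and 1 lower; the higher count was 0 with edgeR and with no filter, and between 0 and 2 with 1 library left out, and the lower count was 0 with library totals and between 0 and 1 with 1 library left out. HMGCS1 alone gained a call, without shCHROME replicate a.

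Over all genes, 532 were higher and 1003 lower. With library totals the balance turned, to 936 higher and 702 lower. The counts ran from 245 to 528 higher and 599 to 1051 lower with 1 library left out, lowest without shCHROME replicate c. With the replicate block 349 were higher and 764 lower, and INSIG2 and MBTPS2 stayed called, as 2 of 29 members against 7.62% of all genes. The libraries share only a letter. Deviations from the group means over 14598 genes correlated at -0.05, -0.09 and 0.04 between libraries of the same letter, and EV replicate b was closest to shCHROME replicate a (0.13). Over the 29 members, which share libraries and pathway, the same-letter values were 0.52 for a, 0.07 for b and 0.45 for c. Motif matches in members were the same with 250 bases before the start alone, except that CACGTG was lost in 1 gene. INSIG1, with 5 reads in all, did not pass the filter on low counts.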
